A study of Mus musculus with 6 samples.

Results

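The genes described here carry thyroid hormone signalling in the postnatal cerebellum: the receptor genes Thra and Thrb, their partner genes Rxra and Rxrb, the hormone transporter gene Slco1c1, the activating enzyme gene Dio2, and the target genes Klf9 and Hr. They were chosen by symbol, and all 8 were found among the 24411 gene symbols of the count tables. Bulk RNA of 6 mouse samples at postnatal day 18 was sequenced. Of these, 3 were wild type (WT) and 3 lacked a large enhancer that serves Atoh7, a transcription factor gene required for retinal ganglion cell fate (enhancer KO, here KO). The comparison asks which transcripts differ in the tissue sampled when that enhancer is missing. The labels name no strain, sex, litter or zygosity and do not give the extent of the deletion. The replicates are called independent, without saying whether each is a separate animal, so p-values measure the spread between these samples, which may be partly technical.

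Thyroid hormone times the postnatal building of the cerebellum, including granule neuron migration, Purkinje dendrite growth and myelination. The hormone enters the brain through membrane transporters, mainly as thyroxine, and type 2 deiodinase, which Dio2 encodes, converts thyroxine to the active form, triiodothyronine, largely in glia. Receptors sit on DNA as heterodimers with retinoid X receptors, hold corepressors when empty and exchange them for coactivators when hormone binds. Klf9 and Hr, which encode a zinc-finger transcription factor and a corepressor, are standard direct targets in brain.

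Atoh7 itself was read 63, 42 and 72 times in WT and 28, 33 and 29 times in KO. Its log2 fold change, KO over WT, was -1.41 ± 0.205 (SE; adjusted p = 0.000352, edgeR). The design text names cerebellum, while the tissue fields of the samples name retina. Of 10 photoreceptor genes, 9 averaged under 1 CPM (counts-per-million values, relative to the TMM-scaled number of reads in genes), and the sum of the 10 was 7.80 to 14.5 CPM per library. The sums of 10 granule neuron and 10 Purkinje markers were 1560 to 2865 and 4584 to 6900 CPM. Reads in genes numbered 22812075 to 33076111 in WT and 36849747 to 40858310 in KO. WT replicate 2 stood apart, with 20.4% of its reads unmapped against 7.79% to 8.32% in the others, the fewest reads in genes and a TMM factor of 0.898 against 1.02 to 1.03. Reads outside annotated exons were 32.4% ± 1.56 of all reads in WT and 17.4% ± 0.735 in KO (SD, n = 3; exact permutation p = 0.1, below which groups of 3 cannot go). This share separates the groups completely, and its part in any result below cannot be told apart from that of the genotype. Nuclear long noncoding RNAs moved with it, with 10 of 10 lower, against 17.9% of all genes tested. WT replicate 1 was the only library with high Xist (1054 CPM against 0.743 to 1.37 CPM in the others), so sex may differ between libraries.

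Of the 8 genes, 3 were higher and 2 lower in KO at an edgeR adjusted p under 0.05, and 3 did not pass. Dio2, Thra and Rxra rose, by 11.5% to 21.4%, and Slco1c1 and Hr fell, by 19.3% and 15.3%. Across all 15846 genes tested, 31.3% were called, 13.4% higher and 17.9% lower. A call in 5 of 8 is thus a larger share than the background, on a small number of genes and with no test of that difference. The 8 lay at percentiles 49.7 to 96.0 of level among the genes tested. The background was not matched for level, here or where other lists are set against it. The ranges of WT and KO did not overlap for the same 5 genes, against 44.8% of all genes tested. The median log2 fold change of the 8 was 0.06, beside 0.00 over all genes tested. Without WT replicate 2, 2 of the 8 were called higher and 2 lower. With a minimum fold of 1.2 none of the 8 was called. With WT replicate 1 as the only WT library, a fit that takes its variance from the KO libraries, 1 of them, Dio2, was called higher and 0 lower.

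Levels per length placed Thra first in every library. CPM per kb of merged exons averaged 54.8 for Thra over the 6 libraries, with a lowest library of 50.2 and a highest of 60.0. Klf9 followed at 31.7 to 33.5 and Hr at 14.1 to 19.0, and neither range touched that of the gene above it. Hr overlapped with Dio2, at 12.3 to 15.4, and Dio2 with Rxrb, at 12.1 to 13.7. Rxra at 7.50 to 10.5 and Slco1c1 at 6.91 to 9.72 also overlapped with each other and lay below Rxrb. Thrb was lowest of the 8 at 2.56 to 3.08, below every other of these genes in every library. These levels per kb rest on the merged exons of GENCODE, which need not be the transcript forms made in this tissue.

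**Figure D1:**
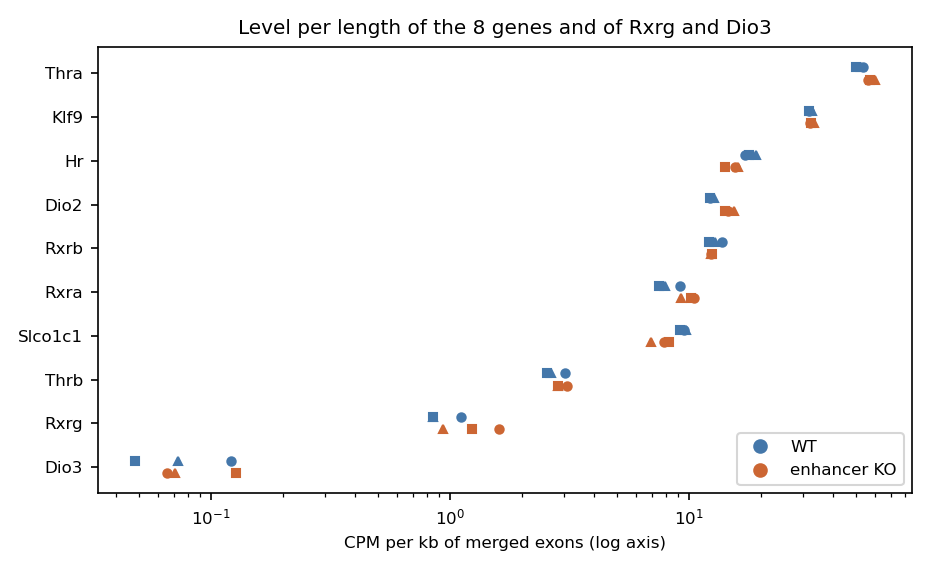
Level per length of the 8 genes and of Rxrg and Dio3, in CPM per kb of merged exons on a log axis. Each point is a library (replicate 1 circle, 2 square, 3 triangle; WT above, KO below), and Thra lies highest, at 50.2 to 60.0, and Dio3 lowest, at 0.0481 to 0.128.

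RefSeq promoter windows (build GRCm38.p6) were at hand for 6 of the 8 genes, 9 windows in all, and the 250 bases before each annotated start were searched on both strands. The motifs were the thyroid hormone response element core AGGTCA, that core repeated in the same direction after a spacer of 4 bases of any kind (whose matches are also matches of the core), the cyclic AMP response element TGACGTCA and the TATA box TATAAA. Of 32851 windows of this length, 4607 held the core, 0.0152% the direct repeat, 1.55% the cyclic AMP element and 12.4% the TATA box. The core was found in 1 of 2 windows of Thrb and in 1 of 2 of Rxra, where it stood on each strand, and the direct repeat in none of the 9. The window of Dio2, a gene known to respond to cyclic AMP, held the cyclic AMP element and a TATA box. The second window of Thrb also held a TATA box. The windows of Klf9, Slco1c1 and Rxrb did not contain these letters. The 3 windows below are shown for these matches, 5′ to 3′ on the strand of the gene with each match in capitals: Dio2 at chr12:90739039-90739288 on the minus strand, Thrb at chr14:17660710-17660959 and Rxra at chr2:27709042-27709291 on the plus strand. A match is a description of the letters and not a binding site.
Dio2: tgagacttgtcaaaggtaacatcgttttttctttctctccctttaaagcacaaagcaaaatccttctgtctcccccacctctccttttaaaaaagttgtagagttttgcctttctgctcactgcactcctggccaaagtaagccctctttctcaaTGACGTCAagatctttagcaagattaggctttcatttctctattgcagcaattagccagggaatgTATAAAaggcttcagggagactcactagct
Thrb: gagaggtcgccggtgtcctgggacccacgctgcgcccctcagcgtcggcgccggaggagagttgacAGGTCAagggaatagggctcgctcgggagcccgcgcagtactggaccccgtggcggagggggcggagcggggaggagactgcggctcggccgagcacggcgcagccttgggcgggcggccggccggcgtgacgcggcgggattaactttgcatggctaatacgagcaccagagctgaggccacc
Rxra: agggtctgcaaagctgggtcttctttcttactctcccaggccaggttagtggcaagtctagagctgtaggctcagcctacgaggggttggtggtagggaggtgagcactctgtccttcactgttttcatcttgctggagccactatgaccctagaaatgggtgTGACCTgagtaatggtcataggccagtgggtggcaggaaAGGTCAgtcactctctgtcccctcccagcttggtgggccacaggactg

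Thra, the more abundant receptor gene, was higher in KO. It occupies the plus strand of chromosome 11 from 98740638 to 98769006 (mm10) and encodes receptor alpha. Its level was 246, 231 and 241 CPM in the WT libraries and 260, 263 and 277 CPM in the KO libraries. Every KO library was above every WT library, by a small margin. Means were 239 ± 7.30 and 267 ± 9.05 CPM (SD, n = 3), with a log2 fold change of 0.16 ± 0.0426 (SE; adjusted p = 0.0151, edgeR). The call was lost without WT replicate 2 (log2 fold change 0.14, edgeR adjusted p = 0.0581) and without KO replicate 3 (0.13, 0.0568). Of the granule neuron markers 10 of 10 were lower, against 17.9% of all genes tested. These markers summed to 2352 to 2865 CPM in WT and 1560 to 1897 CPM in KO. Relative to that sum Thra was 9.14% ± 1.21 and 15.8% ± 1.16 (SD, n = 3). The part of these markers in the rise was not tested, and in bulk RNA fewer cells of a type and less RNA per cell cannot be told apart.

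The 3′ end of Thra overlaps the circadian repressor gene Nr1d1, which lies on the other strand, by 263 bases of exon. In GENCODE the overlap lies in the last exon of Thra-201 and partly in Thra-203, and Thra-202 ends before it. The form that runs into Nr1d1 is known as the alpha 2 variant, whose protein does not bind the hormone. Reads on the Thra strand over Nr1d1 exons were taken from the opposite-strand column of Nr1d1 and set against the number of Thra reads. This ratio was 19.4%, 19.5% and 20.8% in WT and 21.0%, 19.9% and 20.1% in KO. The groups overlapped, with means of 19.9% ± 0.778 and 20.3% ± 0.612 (SD, n = 3; exact permutation p = 0.5, two-sided). This ratio was added after the data were seen. In WT replicate 1 it rests on 1544 reads over Nr1d1 exons. Thra held 7975 reads on its strand and 7550 in the unstranded column, which leaves out reads shared with Nr1d1. Most of the 1544 thus lay outside Thra exons and are not among the Thra reads, and the same held in the other libraries. The ratio is no share of Thra reads or of transcripts, and no measure of the alpha 2 form. Nr1d1 itself, on its own strand, was at 69.0 ± 3.10 CPM in WT and 63.8 ± 3.36 CPM in KO (SD, n = 3) and missed the threshold (-0.11 ± 0.0521 on the log2 scale, SE; adjusted p = 0.119, edgeR).

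Thrb, which encodes receptor beta, did not pass. It spans chromosome 14 from 17660261 to 18038090 on the plus strand. The WT libraries held 22.5, 18.9 and 19.6 CPM and the KO libraries 22.8, 20.9 and 21.0 CPM. WT replicate 1 lay among the KO libraries, and the other WT libraries lay below them. The log2 fold change was 0.08 ± 0.0774 (SE; adjusted p = 0.461, edgeR), with a 95% confidence interval from -0.09 to 0.25. It was -0.04 with WT replicate 1 as the only WT library. The interval includes the value measured for Thra, so the receptor genes were not shown to differ in response.

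Per length, Thra reads exceeded Thrb reads 17.5-fold to 21.1-fold within each library. The log2 ratio of Thra to Thrb was 4.24 ± 0.0961 in WT and 4.31 ± 0.108 in KO (SD, n = 3; exact permutation p = 0.5, adjusted over 3 such ratios 0.7). The groups overlapped in this ratio.

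Rxra was higher and Rxrb was not, among the genes of the retinoid X receptors that pair with the hormone receptors. Rxra lies on chromosome 2 at 27676440 to 27762957, on the plus strand. It was at 50.2, 41.0 and 43.3 CPM in WT and 57.3, 55.9 and 50.5 CPM in KO. WT replicate 1 lay just under KO replicate 3. The log2 fold change was 0.28 ± 0.0768 (SE; adjusted p = 0.0188, edgeR). The call was lost without WT replicate 3 (log2 fold change 0.25, edgeR adjusted p = 0.0767), without KO replicate 1 (0.26, 0.0531) and without KO replicate 2 (0.26, 0.0636). With WT replicate 1 as the only WT library it was 0.14 (edgeR adjusted p = 0.246), a smaller value by over 1.5 times. Of 10 microglial markers, 5 were higher, against 13.4% of all genes tested. The 10 summed to 314 to 324 CPM in WT and 340 to 408 CPM in KO. Relative to that sum Rxra was at 12.7% to 15.5% in WT and 13.7% to 14.8% in KO (exact permutation p = 0.7). Microglial markers were not the only ones to rise. Of Purkinje markers 6 of 10 were higher, and of astroglial markers 6 of 12, against the same 13.4%. Granule neuron markers (10 of 10) and endothelial markers (6 of 10) were lower, against 17.9% of all genes tested. The part of any of these marker lists in the rise of Rxra was not tested.

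Rxrb lies on chromosome 17 at 34031812 to 34038399, on the plus strand. Its level was 54.5, 48.1 and 51.4 CPM in WT and 49.3, 49.7 and 49.2 CPM in KO. The KO libraries sat together inside the WT range. The log2 fold change was -0.06 ± 0.0519 (SE; adjusted p = 0.433, edgeR), with a 95% confidence interval from -0.17 to 0.05, and 0.00 with library size alone. The log2 ratio of Rxra to Rxrb, per length, was -0.58, -0.69 and -0.71 in WT and -0.24, -0.29 and -0.42 in KO. Rxrb was thus the more abundant of the pair in every library, and by less in KO (difference 0.34; exact permutation p = 0.1, the smallest possible, adjusted over 3 such ratios 0.3). Rxrg, the third gene of the family, was scarce, at 2.15 ± 0.350 CPM in WT and 2.90 ± 0.769 CPM in KO (SD, n = 3), and did not pass (edgeR adjusted p = 0.170). Without KO replicate 3 it was called higher (log2 fold change 0.59, edgeR adjusted p = 0.0365).

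**Figure D2:**
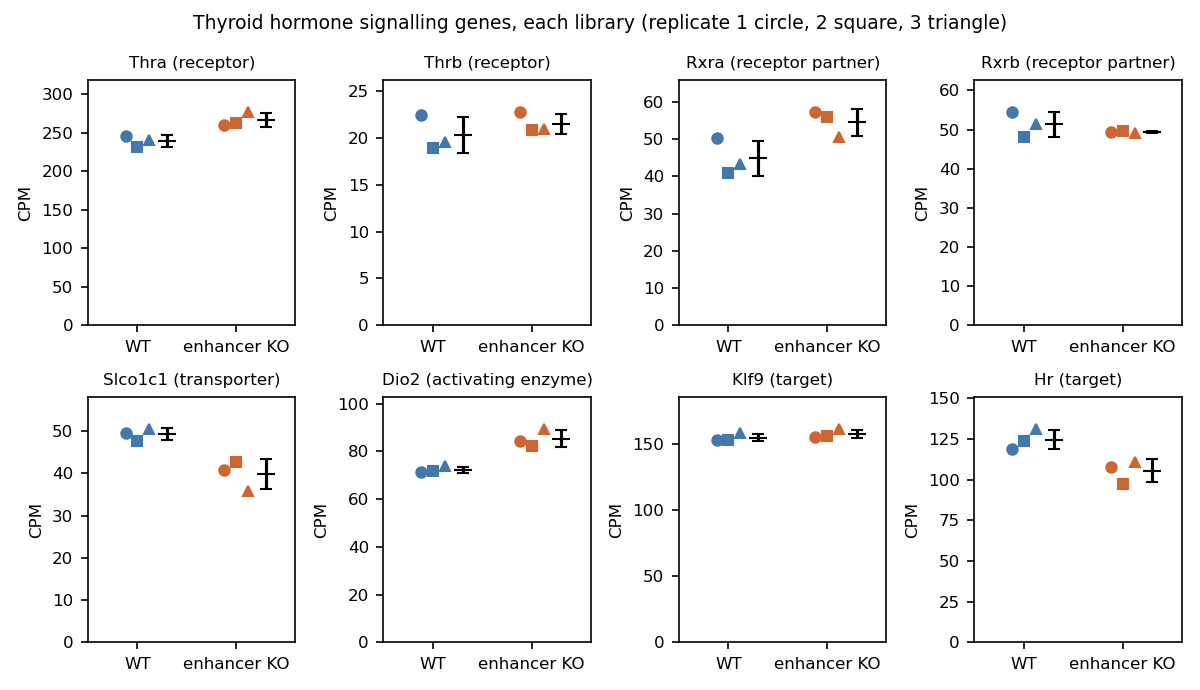
Level of each of the 8 genes in CPM (linear axes from 0), with a point for each library and a bar for the mean ± SD of 3. WT and KO points do not overlap for Thra, Rxra, Slco1c1, Dio2 and Hr, and overlap for Thrb, Rxrb and Klf9.

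Slco1c1, which encodes a thyroxine transporter of brain capillaries, choroid plexus and some astroglia, was lower in KO. It lies on chromosome 6 at 141524368 to 141570177, on the plus strand. It was at 49.6, 47.7 and 50.4 CPM in WT and 40.8, 42.7 and 35.9 CPM in KO. The WT libraries were close together, and KO replicate 3 was the lowest of all. Means were 49.2 ± 1.39 and 39.8 ± 3.54 CPM (SD, n = 3), with a log2 fold change of -0.31 ± 0.0641 (SE; adjusted p = 0.00340, edgeR). The call held without each library in turn (log2 fold change -0.36 to -0.24, edgeR adjusted p from 0.00368 to 0.0186) and was lost with WT replicate 1 as the only WT library (-0.29, 0.0584).

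Endothelial markers moved with Slco1c1. Of 10, 6 were lower and 0 higher, against 17.9% and 13.4% of all genes tested. The sum of the 10 was 285, 258 and 301 CPM in WT and 256, 252 and 216 CPM in KO. Slco1c1 amounted to 17.4%, 18.5% and 16.8% of that sum in WT and 15.9%, 16.9% and 16.6% in KO, ranges that overlap (exact permutation p = 0.2). Permutation of groups of 3 cannot go below 0.1, so this overlap does not show that Slco1c1 follows the markers. Their part in its fall was not tested. Comparisons of single genes with marker sums were not planned in advance. Choroid plexus markers, of which 0 of 10 were called, summed to 1224 to 1907 CPM in WT and to 1896, 2069 and 832 CPM in KO. Enhancer KO replicate 3, the lowest in Slco1c1, was also the lowest in both marker sums. Relative to the choroid plexus sum, Slco1c1 was at 2.64% to 4.05% in WT and 2.06% to 4.31% in KO. Most of that sum was the marker Ttr, with 736 of 832 CPM in KO replicate 3.

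Among 5 other genes of hormone transport, 2 fell and 0 rose, a share near the 31.3% of all genes called, so the count is no result about the list. Slco1a4, another organic anion transporter of brain capillaries, was at 41.6, 42.3 and 42.3 CPM in WT and 31.5, 29.5 and 28.4 CPM in KO. The groups were far apart, with a log2 fold change of -0.50 ± 0.0551 (SE; adjusted p = 5.10e-05, edgeR). Relative to the endothelial sum it was 15.0% ± 1.23 in WT and 12.4% ± 0.741 in KO (SD, n = 3; exact permutation p = 0.1). Slc7a8, an amino acid transporter that also carries the hormone, fell from 50.1 ± 3.06 to 40.3 ± 0.580 CPM (SD, n = 3; adjusted p = 0.00110, edgeR). Ttr, the hormone carrier protein made by choroid plexus, was at 736 CPM in KO replicate 3 and at 1081 to 1874 CPM in the other libraries.

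Dio2, which makes the active hormone within the brain, was higher in KO. It lies on chromosome 12 at 90724552 to 90738438, on the minus strand. Its level was 71.5, 71.7 and 73.7 CPM in WT and 84.4, 82.2 and 89.3 CPM in KO. The WT libraries were close together and well below all KO libraries. Means were 72.3 ± 1.19 and 85.3 ± 3.65 CPM (SD, n = 3), with a log2 fold change of 0.24 ± 0.0449 (SE; adjusted p = 0.00188, edgeR). The rise held its call without each library in turn (edgeR adjusted p from 0.00394 to 0.00787) and in 18 of 19 alternatives in all, the exception being the minimum fold of 1.2.

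Astroglial markers rose in the same libraries. Of 12 Bergmann glia and astrocyte genes, 6 were higher and 0 lower, against 13.4% and 17.9% of all genes tested. The sum of the 12 was 6867 to 6978 CPM in WT and 8010 to 8460 CPM in KO. Dio2 amounted to 1.04% ± 0.0138 of that sum in WT and 1.03% ± 0.0725 in KO (SD, n = 3; exact permutation p = 1). The level of Dio2 relative to these glial transcripts thus overlapped between the groups, a comparison added after the data were seen. Slc1a2 alone averaged 3180 CPM in WT and 3979 CPM in KO, so the sum leans on that gene, and 6 of the 12 did not pass. The part of these markers in the rise of Dio2 was not tested.

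Dio3, which encodes the enzyme that inactivates the hormone, had 8, 2 and 5 reads in WT and 5, 10 and 6 in KO and was too scarce to test. Dio1, another activating deiodinase gene, had at most 1 read per library. Per length, Dio2 exceeded Dio3 95.3-fold to 205-fold, a ratio that rests on at most 10 Dio3 reads per library and did not separate the groups (exact permutation p = 0.7). Of 5 genes of deiodination, hormone binding and sulfation, 3 were tested and did not pass, at edgeR adjusted p-values of 0.388 to 0.945. Ttr had a log2 fold change of 0.05 ± 0.440 and Sult1a1, a sulfotransferase gene, of 0.30 ± 0.233 (SE).

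**Figure D3:**
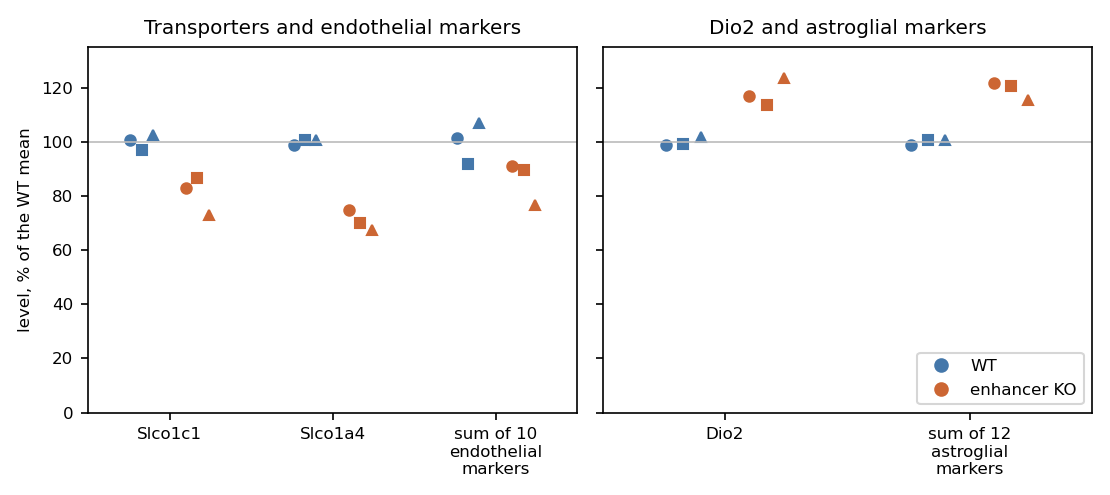
Levels as a percent of the WT mean (linear axis from 0) for Slco1c1, Slco1a4 and the sum of 10 endothelial markers, and for Dio2 and the sum of 12 astroglial markers. Each point is a library. Slco1c1 and the endothelial sum are low in KO, and Dio2 and the astroglial sum are high.

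The target genes differed from each other. Klf9, which lies on chromosome 19 at 23141226 to 23168134, was at 153, 153 and 158 CPM in WT and 155, 156 and 161 CPM in KO. The groups were interleaved. Its log2 fold change was 0.03 ± 0.0389 (SE; adjusted p = 0.616, edgeR), with a 95% confidence interval from -0.06 to 0.11, the narrowest of the 8.

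Hr, on chromosome 14 at 70552212 to 70573548, was lower. It held 119, 124 and 131 CPM in WT and 108, 97.4 and 111 CPM in KO, with every KO library below every WT library. Means were 124 ± 6.38 and 105 ± 7.14 CPM (SD, n = 3), with a log2 fold change of -0.24 ± 0.0559 (SE; adjusted p = 0.00687, edgeR). The call was lost with library size alone in place of TMM (log2 fold change -0.18, edgeR adjusted p = 0.0952) and with WT replicate 1 as the only WT library (-0.15, 0.195). Relative to the granule neuron sum, Hr was 4.31% to 5.04% in WT and 5.86% to 6.64% in KO, the opposite order to its CPM. That sum was itself lower in KO, at 1560 to 1897 CPM against 2352 to 2865 CPM in WT, and fell by more than Hr. The ratio is thus no measure of Hr per cell, and the part of these markers in its fall was not tested.

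The receptor cofactor genes tested fall into corepressors and coactivators, and with library size alone in place of TMM none of the lower calls in either list was kept. Of 5 genes of the corepressor complex, 3 fell and 1 rose. That is 80.0% called against 31.3% of all genes tested, on few genes and with no test of that difference. Ncor1, a corepressor that binds the empty receptor, fell from 278 ± 3.41 to 236 ± 0.253 CPM (SD, n = 3). The deacetylase gene Hdac3 had a log2 fold change of -0.20 ± 0.0458 and Gps2, named after its values were seen, of -0.35 ± 0.0806 (SE). Tbl1xr1, another subunit, rose from 117 ± 0.904 to 139 ± 5.64 CPM (SD, n = 3). Adjusted p-values of these 4 by edgeR were 0.000575 to 0.00596. With library size alone Ncor1, Hdac3 and Gps2 were not called (edgeR adjusted p = 0.0885, 0.186 and 0.0525), and Tbl1xr1 was (log2 fold change 0.30, edgeR adjusted p = 0.00293).

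Of 7 coactivator genes, 4 fell and 0 rose, 57.1% called against 31.3% of all genes tested, again with no test of that difference. Ncoa3 had a log2 fold change of -0.28 ± 0.0540, the acetyltransferase genes Crebbp and Ep300 of -0.20 ± 0.0436 and -0.19 ± 0.0384, and the mediator gene Med1 of -0.12 ± 0.0402 (SE). Their edgeR adjusted p-values were 0.00242, 0.00414, 0.00297 and 0.0467. Med1 lost its call on omitting any of the 6 libraries in turn (edgeR adjusted p from 0.0506 to 0.142). Ep300 was no longer called with a trend over gene length and GC content removed (-0.09, edgeR adjusted p = 0.0759). With library size alone the calls of Ncoa3, Crebbp, Ep300 and Med1 were all lost (edgeR adjusted p = 0.0588, 0.187, 0.236 and 0.667). In all, 10 of 21 tested genes of transport, metabolism and receptor cofactors were called, 47.6%, against 31.3% of all genes, 9 of them lower and 1 higher. With library size alone 3 of the 21 were called, namely Slco1a4, Slc7a8 and Tbl1xr1. Among all genes 57.3% of calls were lower, and 43.8% with library size alone.

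**Figure D4:**
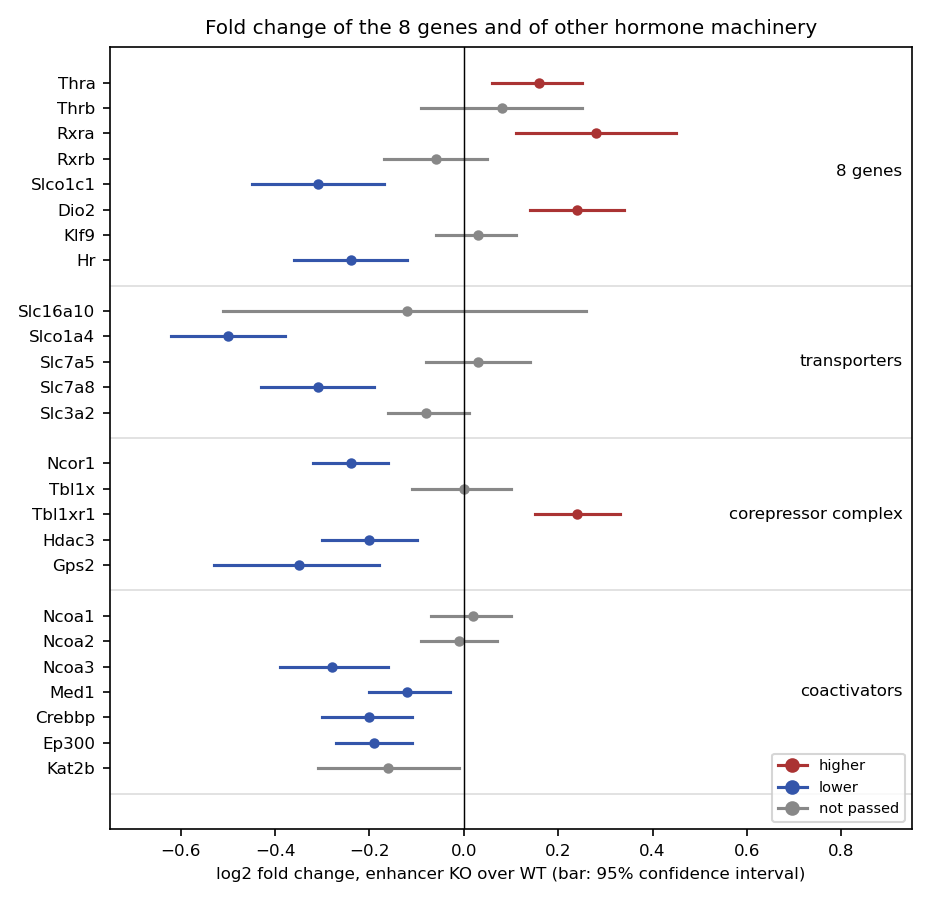
Log2 fold change, KO over WT, of the 8 genes and of other transporter, corepressor and coactivator genes, with 95% confidence intervals from edgeR. Red marks higher, blue lower and grey not passed at an adjusted p under 0.05. Slco1a4 is lowest, at -0.50, and Rxra highest, at 0.28.

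Other genes known to respond to thyroid hormone in brain moved in both directions. Of 24, 3 were higher and 4 lower, 29.2% against 31.3% of all genes, with a median log2 fold change of 0.09. The nuclear receptor gene Rora, high in Purkinje cells, rose from 466, 521 and 520 CPM to 626, 618 and 641 CPM and the malic enzyme gene Me1 from 93.4 ± 3.57 to 112 ± 2.92 CPM (SD, n = 3). Reln, a matrix signal made by granule neurons, fell from 322 ± 17.8 to 189 ± 8.87 CPM and the integrin gene Itga7 from 35.2 ± 3.25 to 21.1 ± 2.04 CPM (SD, n = 3). Adjusted p-values of these 4 by edgeR were 1.35e-06 to 0.000883. The others called, named after their values were seen, were Mbp, higher by 0.16 on the log2 scale, and Mag and Ntf3, with log2 fold changes of -0.26 and -0.73. In the same libraries 10 of 10 granule neuron markers, a list that also holds Reln, were lower, against 17.9% of all genes tested. Of 10 Purkinje markers 6 were higher, against 13.4% of all genes tested. The part of both marker lists in these changes was not tested.

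The level of Nrgn, a neuronal calmodulin-binding gene long used as a thyroid hormone target and named after its values were seen, differed between WT libraries. It was at 70.7, 12.1 and 8.49 CPM in WT and 86.2, 85.6 and 103 CPM in KO. WT replicates 2 and 3 were far below the other 4 libraries. It missed the threshold (log2 difference 1.55 ± 0.884, SE; adjusted p = 0.276, edgeR).

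Over the 6 libraries, the correlations between genes include the group difference and are given as a description. The log2 levels of Dio2 ran with those of Thra (Pearson r = 0.939) and against those of Slco1c1 (r = -0.961). Among 10309 genes with a mean of at least 10 CPM, those most like Dio2 were Cds1 (r = 0.9984) and Dcaf12 (r = 0.9973), and those most like Thra were Ccdc71 and Sergef (r = 0.9945 and 0.9939). For Thrb they were Cachd1 and Shisa9 (r = 0.9925 and 0.9901), and for Klf9 Zbtb22 and Pard6a (r = 0.9823 and 0.9767). The named genes are the highest of 10309 correlations over 6 points, a choice that favours high r, and shared regulation was not tested. The 6 points also carry the depth and exon share of their libraries.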

How the data were processed

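Bulk RNA-seq counts of 6 libraries were used, 3 WT and 3 KO. The submitters' processing notes name Trimmomatic, STAR and the mm10 build, without versions or annotation. The deposited values are raw counts of reads per gene, unstranded and per strand, with no normalization by the authors. Column 4, the strand that holds the genes' reads (1.62% to 1.88% lay on the other strand), was used. The 4 rows that name no gene held 35.9% to 61.9% of reads and stayed out of library sizes and tests.

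Genes passing filterByExpr (15846) were scaled by TMM and compared with edgeR 4.0.16 in R 4.3.3 (robust quasi-likelihood test, two-sided, Benjamini-Hochberg over all genes tested, threshold 0.05). SEs were derived from the fold change and F. Ratios within a library (pseudocount 0.5 counts) and shares were compared by two-sided exact permutation (scipy 1.17.1). Lengths and positions came from GENCODE mouse release M21, on the same build; 23334 of 24411 symbols matched by symbol and 668 by an older symbol. The test was checked on simulated counts.

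Alternatives tried: library size alone or RLE in place of TMM, other filters, replicate number as a block, the unstranded column, DESeq2 1.42.0, limma-voom (limma 3.58.1), a minimum fold of 1.2, a threshold of 0.1, an Xist covariate, removal of a trend over gene structure (mgcv 1.9.3), leaving out each library, and WT replicate 1 as the only WT library. Genes named were the 8 genes, up to 4 called genes per list with the smallest p or the 2 most abundant, and the 2 best correlates of Thra, Thrb, Dio2 and Klf9. The members and lists were chosen with earlier results of these data known, and 2 other genes of the lists are not reported here. Every pair of libraries differed by more than sampling noise (lowest median chi-square per gene 1.08, against 0.455).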

Additional observations from a re-analysis of the deposited data

Results flagged for a closer look

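Reads on the strand of Thra over exons of Nr1d1 were a signal in a column that the main comparison does not use. Their mean level was 47.6 ± 2.41 CPM in WT and 54.2 ± 1.69 CPM in KO (SD, n = 3), and every KO library lay above every WT library (exact permutation p = 0.1, the smallest possible). As a ratio to Thra reads, of which they are mostly not a part, the groups overlapped, at 19.9% and 20.3%.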

How the results depend on the processing

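Of the 5 genes called, each kept its direction in all 19 alternatives, and Dio2 kept its call in 18, Slco1c1 in 17, Hr in 16, Thra in 15 and Rxra in 14. Some of this was fixed in advance. The threshold of 0.1 reused the main fit and could not lose a call. The minimum fold of 1.2 reused the main fold changes and could not change a direction. The Xist covariate nearly marks WT replicate 1 alone (1054 CPM against 0.743 to 1.37 CPM in the others). It thus comes close to leaving that library out and is not a separate check. Thrb, Rxrb and Klf9 were called in none. With a minimum fold of 1.2, the genes called higher among the 8 were 0 and lower 0, with 1 of the other machinery and 2 of the hormone-responsive genes, and over all genes 991 were called, 83 higher and 908 lower. With library size alone, 1 of the 8 was lower, 3 of the other machinery were called, and 1689 of all genes were lower, against 2843 with TMM. With WT replicate 1 as the only WT library, 1 of the 8 was higher and 0 lower, and 3129 genes were called, 1640 of them lower. The difference in the log2 ratio of Dio2 to Dio3, 0.15 with all libraries, ranged from -0.15 to 0.46 when each library was left out, and fell below 0 on omitting WT replicate 1 or either of KO replicates 1 and 3 (-0.01 and -0.00).  In the replicate block, same-numbered libraries did not deviate together (correlations 0.053, -0.039 and -0.080), the calls of the 8 genes were 3 higher and 2 lower as without it, and 4594 genes were called in place of 4963. Among other named genes, Cachd1 and Shisa9 became called on omitting WT replicate 1 or with the Xist covariate, fits that are close to each other. The cause of these changes was not tested. Few reads limit what can be said of Dio3 and Dio1.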
